A study of Sus scrofa with 12 samples.

Results

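Nuclear receptors are transcription factors that bind small lipophilic ligands such as steroids, thyroid hormone, retinoic acid, oxysterols and fatty acids, or act as orphans without a known ligand. A receptor sits on its target genes alone or in a pair, often with a retinoid X receptor, and recruits corepressors or coactivators depending on the ligand. In the liver this family steers the handling of bile acids, cholesterol, glucose and foreign compounds. The set described here held every gene on the array whose symbol follows the family's NR nomenclature, apart from 4 receptors of the clock and of bile acid feedback (NR1D1, NR1D2, NR1H4 and NR0B2), and 20 receptors that are usually called by an older name, among them HNF4A, the retinoid receptors, the thyroid hormone receptors and the oestrogen-related receptors. Receptors outside this rule, such as PPARA, were not part of it. Of 13823 genes with a symbol, 35 belonged to it, 18 by the NR pattern and 17 of the 20 with an older name. HNF4G, ESR1 and VDR had no transcript cluster under their own symbol. The rule went by gene symbol and used no measured value, but it was set with earlier results of these data known.

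The liver of 12 male pigs of a Pietrain cross was profiled with 1 porcine gene array for each animal. Group PIV (6 pigs) was given sodium pivalate in a NaHCO3 solution by mouth at 30 mg per kg body weight and day for 28 days, starting at an age of 5 weeks. Group CON (6 pigs) was given the NaHCO3 solution alone, with the same diets. Pivalate forms an ester with carnitine that is lost in the urine, and the study used it to lower the carnitine stores of growing animals and asked what follows in the liver transcriptome. The pigs lived in pairs, but which pigs shared a pen is not stated, and the p-values take every pig as independent.

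All values are log2 signals after RMA, a summary over the probes of a transcript cluster. A cluster was taken as bright if its log2 signal was at least 5 in at least 6 pigs, a limit set without a measured background. In bulk liver RNA, a change in the number of cells of a type cannot be told apart from a change of RNA per cell. All 8 measured hepatocyte markers were bright, and the summed linear level of these markers was 30740 to 32370 in group PIV and 29370 to 32050 in group CON. The array medians lay between 4.75 and 4.88. Pig K22 of group CON had the most distant score on the first principal component and the lowest array weight in limma, at 0.518. Arrays were numbered group by group, so that array order and treatment cannot be told apart.

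Between the groups, 1 of the 35 members passed the filter, an unadjusted limma p under 0.05 together with a fold change (FC) beyond 1.2 up or down. These are the thresholds of the study's methods, which use the p of an ordinary unpaired test in place of limma's. With the methods' t-test 1 member and 300 of all clusters passed here. The study itself reports fewer transcripts past these thresholds, out of a smaller number screened. With either test the member past the filter was NR2E1, higher in group PIV. The share of members past the filter was 2.86%, and over all 25385 clusters it was 1.82%, with 1.03% higher and 0.788% lower in group PIV. An unadjusted limma p under 0.05 was found for NR2E1 and NR2F2, 5.71% of the members, against 3.63% of all clusters. After Benjamini-Hochberg adjustment over all clusters 0% passed, the lowest adjusted p in limma was 0.788 for any cluster and 1.0 for any member. The groups overlapped for every member, and over all clusters they did not overlap in only 0.158%, so the 35 members do not stand apart in this.

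**Figure D1:**
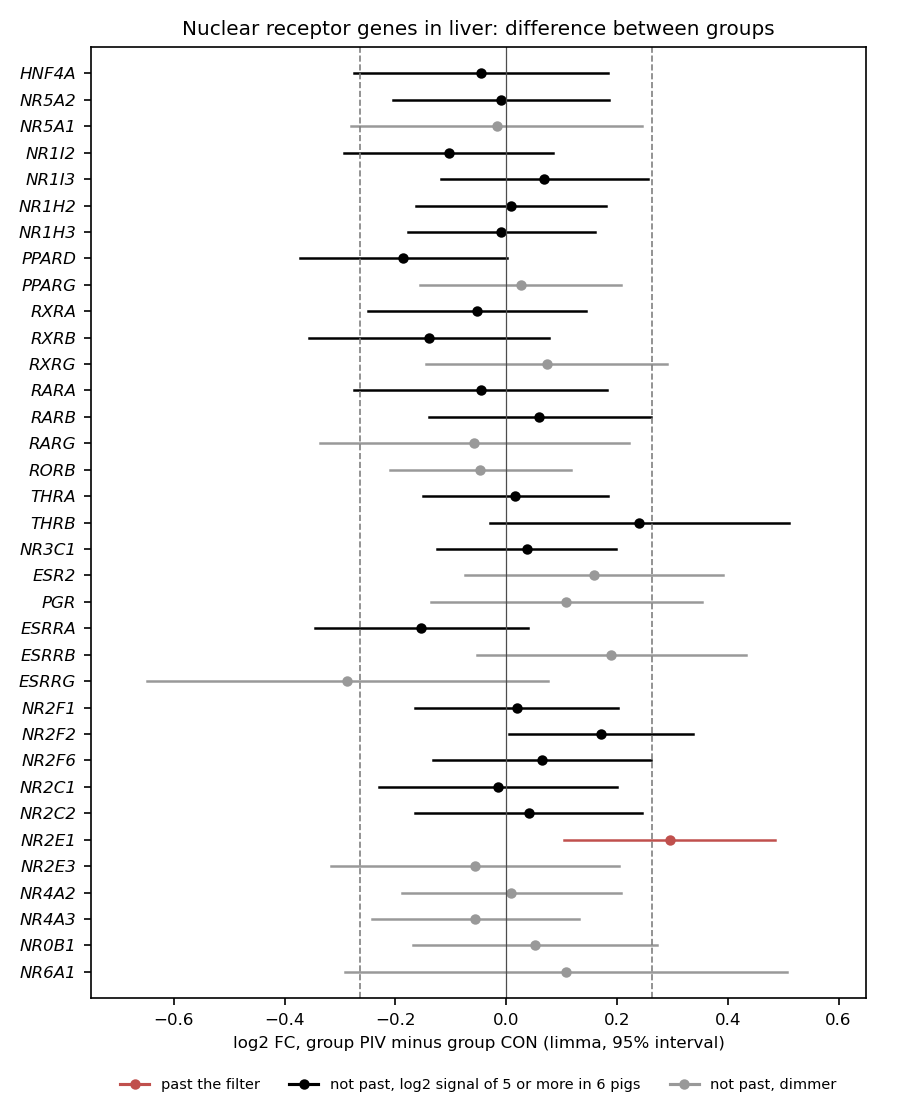
Log2 FC of the 35 nuclear receptor genes, group PIV minus group CON, on the horizontal axis; points are limma estimates, lines are 95% intervals and dashed lines mark a FC of 1.2 in each direction. NR2E1 alone is past the filter, and the intervals of 33 members include 0.

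The differences of the members were small and of both signs. The log2 FC was positive for 19 and negative for 16 of them, and the share of positive ones was 54.3%, against 52.3% over all clusters. With equal array medians it was positive for 16 and negative for 19, so no direction can be read from the count. The median log2 FC was 0.009 for the members and 0.006 for all clusters, and the median size of the log2 FC was 0.057 for the members and 0.069 for all clusters. In the 20 bright members the log2 FC ran from -0.19 to 0.24, and their 95% intervals reached at most 1.29-fold lower and 1.42-fold higher. Over all members, the interval lay within 1.5-fold in both directions for 34 of 35, ESRRG being the exception, and within 1.2-fold for 16.

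The first members to describe are the receptors that set the identity of hepatocytes and their bile acid and steroid genes. HNF4A, which binds most genes that are typical of hepatocytes, ranged from 8.27 over a median of 8.33 to 8.55 in group PIV, and from 8.12 over a median of 8.46 to 8.68 in group CON. The lowest and the highest of the 12 values of HNF4A were both in group CON. The log2 FC was -0.05 with an SE of 0.11, and the 95% interval ran from 1.21-fold down to 1.14-fold up. NR5A2 (LRH-1), which drives bile acid synthesis, averaged 7.19 ± 0.15 in group PIV and 7.20 ± 0.15 in group CON (SD, n = 6 each, as for all means below). NR5A1 (SF-1), the relative known for steroid-producing glands, was dim in every pig, with 4.22 ± 0.21 in group PIV and 4.23 ± 0.26 in group CON. Its cluster (chr1:280125370-280133426, minus strand) lies within the span annotated for NR6A1 (chr1:279960924-280407461, minus strand), so a part of either signal could come from the other gene.

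The xenobiotic receptors NR1I2 (PXR) and NR1I3 (CAR) sense drugs and other foreign compounds and switch on cytochrome P450 genes. NR1I2 ranged from 7.84 over a median of 8.19 to 8.29 in group PIV and from 8.05 over a median of 8.25 to 8.36 in group CON, and the log2 FC was -0.10 with an SE of 0.09. Pig P12 of group PIV had the lowest NR1I2 value, and 2 pigs of this group lay below the lowest of group CON. NR1I3 averaged 8.52 ± 0.06 in group PIV and 8.45 ± 0.18 in group CON. For both, the interval stayed within 1.23-fold in either direction.

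The lipid sensors comprise the liver X receptors, which respond to oxysterols, and the PPARs, which respond to fatty acids. NR1H3 (LXR alpha) averaged 7.04 ± 0.04 in group PIV and 7.05 ± 0.15 in group CON, and NR1H2 (LXR beta) averaged 6.93 ± 0.07 in group PIV and 6.92 ± 0.15 in group CON. PPARD (chr7:35734820-35881353, plus strand), which promotes fatty acid oxidation in many tissues, ranged from 6.04 over a median of 6.30 to 6.44 in group PIV and from 6.30 over a median of 6.48 to 6.58 in group CON. The groups of PPARD overlapped, but 3 pigs of group PIV lay below the whole of group CON. The log2 FC of PPARD was -0.19 with an SE of 0.09, a FC of -1.14 that stays under the threshold of the filter. The unadjusted limma p was 0.0509, and the exact two-sided permutation test over the 924 ways to choose 6 of 12 pigs gave p = 0.0411, which was not adjusted. PPARG, the regulator of fat cells, was dim in every pig, at 3.14 ± 0.15 in group PIV and 3.12 ± 0.10 in group CON.

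**Figure D2:**
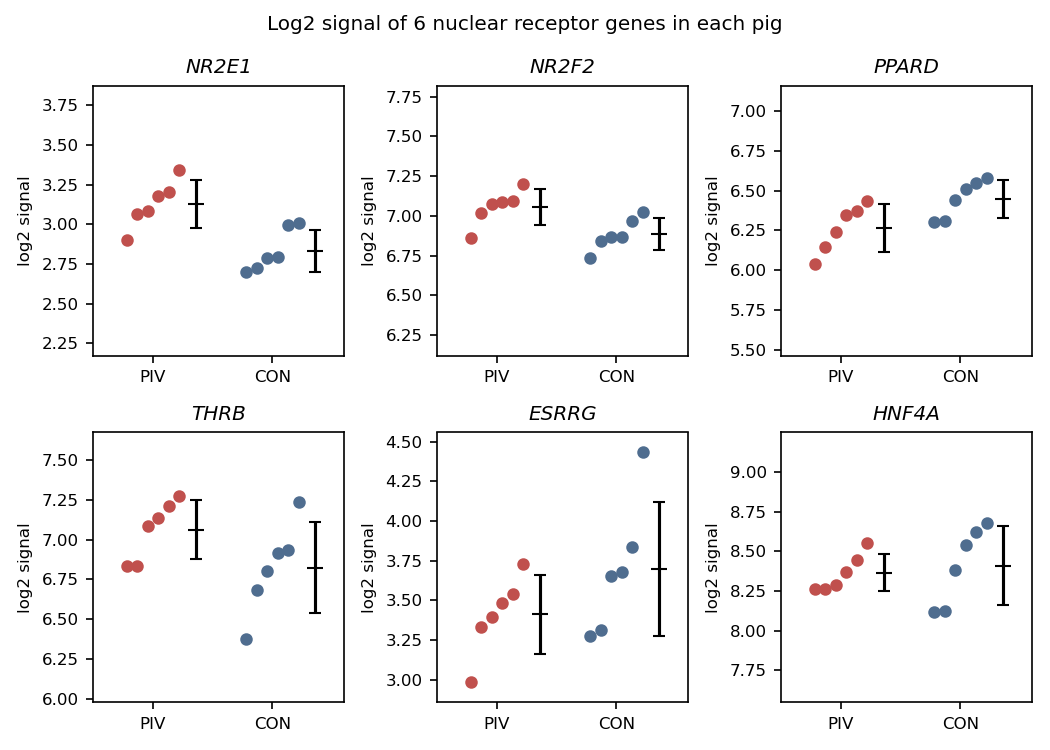
Log2 signal of NR2E1, NR2F2, PPARD, THRB, ESRRG and HNF4A in each pig (vertical axis, same span in each panel), group PIV at the left and group CON at the right; dots are pigs in order of their value, and the bar beside them is the mean ± SD of 6 pigs. The groups overlap in every panel, and the smallest overlap is that of NR2E1, with 5 pigs of group PIV above the highest of group CON.

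The retinoid X receptors are the obligate partners of PXR, CAR, the liver X receptors, the PPARs, the retinoic acid receptors and the thyroid hormone receptors. RXRA, the main form in liver, ranged from 7.13 over a median of 7.24 to 7.31 in group PIV and from 7.08 over a median of 7.27 to 7.61 in group CON. Group PIV lay wholly within the range of group CON, and the log2 FC was -0.05 with an SE of 0.09. RXRB averaged 5.45 ± 0.13 in group PIV and 5.59 ± 0.21 in group CON, with a log2 FC of -0.14 and an interval of 1.28-fold down to 1.06-fold up. RXRG was dim, at 3.08 ± 0.17 in group PIV and 3.01 ± 0.19 in group CON.

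Among the receptors for retinoic acid and thyroid hormone, THRB, the form that carries most thyroid hormone action in rodent liver, had the largest positive log2 FC of the bright members. THRB (chr13:9031955-9121645, minus strand) ranged from 6.84 over a median of 7.11 to 7.28 in group PIV and from 6.38 over a median of 6.86 to 7.24 in group CON. Only pig P31 exceeded all pigs of group CON, in which K22 was the highest and K3 the lowest. The log2 FC was 0.24 with an SE of 0.13, the FC of 1.18 was under the filter, the limma p was 0.0778 and the exact permutation p was 0.119. Without K22 the log2 FC of THRB was 0.32, and without P12 or P50, the lowest of group PIV, it was 0.29 each time, and in these 3 fits THRB passed the filter. Without K3 it was 0.15. THRA averaged 6.54 ± 0.13 in group PIV and 6.52 ± 0.08 in group CON, with a log2 FC of 0.02. The test of THRB against THRA was not run. Of the retinoic acid receptors, RARA averaged 5.77 ± 0.22 in group PIV and 5.81 ± 0.16 in group CON, RARB averaged 6.44 ± 0.15 in group PIV and 6.38 ± 0.16 in group CON, and the dim RARG averaged 4.39 ± 0.21 in group PIV and 4.45 ± 0.29 in group CON. None of these differences was larger than the spread between pigs. RORB, an orphan receptor of retina and brain, was dim, at 2.50 ± 0.11 in group PIV and 2.54 ± 0.10 in group CON.

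The steroid receptors in the set were NR3C1, ESR2 and PGR. NR3C1, the glucocorticoid receptor, was represented by 2 clusters. The one with the higher mean averaged 6.43 ± 0.12 in group PIV and 6.40 ± 0.07 in group CON, and its annotated place (chr2:131695631-131695789) is on the plus strand. The other (chr2:131600820-131630614) is on the minus strand and averaged 6.37 ± 0.08 in group PIV and 6.41 ± 0.20 in group CON. Their log2 FC of 0.04 and -0.04 differed in sign and both lay within the spread between pigs. ESR2 was dim, and its log2 FC of 0.16 came with 4.13 ± 0.07 in group PIV and 3.97 ± 0.27 in group CON, where K22 and K1 were the lowest. PGR was dim too, at 2.59 ± 0.21 in group PIV and 2.48 ± 0.22 in group CON. ESR1 and VDR were found only through mRNA entries of clusters that are marked as cross-hybridising. Their log2 signals averaged 4.12 ± 0.21 in group PIV and 4.02 ± 0.06 in group CON for ESR1, and 4.20 ± 0.13 in group PIV and 4.16 ± 0.20 in group CON for VDR.

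The oestrogen-related receptors are orphans that, with the PGC-1 coactivators, turn on genes of mitochondrial respiration. ESRRA averaged 5.67 ± 0.15 in group PIV and 5.83 ± 0.14 in group CON, with a log2 FC of -0.15 and 2 pigs of group PIV under the lowest of group CON. ESRRG (chr10:6793922-6861746, minus strand) had the most negative log2 FC of all members, -0.29 with an SE of 0.17, and was dim in every pig. It ranged from 2.98 over a median of 3.44 to 3.73 in group PIV and from 3.28 over a median of 3.66 to 4.43 in group CON, and the high value of K3 was 4.43. The FC of -1.22 was past the threshold of the filter but the limma p was 0.112 and the exact permutation p was 0.188. Without K22, the lowest pig of group CON, ESRRG had a log2 FC of -0.37 and passed the filter, and without K3, the highest, it had one of -0.14. ESRRB, also dim, pointed the other way with 4.82 ± 0.07 in group PIV and 4.63 ± 0.29 in group CON, where K22 was the lowest at 4.20.

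The remaining members are orphan receptors. The COUP-TF group comprises NR2F1, NR2F2 and NR2F6, which often act as repressors at the sites of other receptors. NR2F2 (COUP-TFII, chr7:91195566-91206740, minus strand), which specifies venous endothelium and, in mice, is also present in hepatocytes and mesenchymal cells, ranged from 6.86 over a median of 7.08 to 7.20 in group PIV and from 6.74 over a median of 6.87 to 7.02 in group CON. In group PIV 4 pigs exceeded every pig of group CON, and only P10 lay below the median of group CON. The log2 FC was 0.17 with an SE of 0.08, the FC of 1.13 was under the filter, the limma p was 0.0442 with an adjusted p of 1.0, and the exact permutation p was 0.0260. NR2F2 kept a p under 0.05 in 11 of 21 alternative fits, with equal array medians it had a log2 FC of 0.15 and a p of 0.0716, and PPARD came under 0.05 in 10 of 21, at 0.0284 with equal array medians. The markers of sinusoidal endothelial cells, none of which passed the filter, had a summed linear level of 1164 to 1324 in group PIV and 1163 to 1341 in group CON, and those of stellate cells and fibroblasts had one of 647.6 to 1394 in group PIV and 775 to 1307 in group CON. Over 8 lists of cell type markers, the median log2 FC ran from -0.065 (stellate cells and fibroblasts) to 0.157 (T and NK cells). JCHAIN, of the B and plasma cell list, was the only marker past the filter, with a FC of -1.39. NR2F1 averaged 6.97 ± 0.08 in group PIV and 6.95 ± 0.17 in group CON, and NR2F6 averaged 7.60 ± 0.17 in group PIV and 7.54 ± 0.14 in group CON. The testicular receptors NR2C1 and NR2C2, repressors that compete for the same elements, had log2 FC of -0.01 and 0.04.

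NR2E1 (TLX), a repressor known from neural stem cells and the retina, was the member past the filter. Its cluster (chr1:77851596-77871232, plus strand; the genome build behind these array coordinates is not stated) is covered by 19 probes. NR2E1 ranged from 2.90 over a median of 3.13 to 3.35 in group PIV and from 2.70 over a median of 2.79 to 3.01 in group CON. In group PIV 5 of 6 pigs exceeded all pigs of group CON, and P29 was the exception. The means were 3.13 ± 0.15 in group PIV and 2.83 ± 0.13 in group CON, the log2 FC was 0.295 with an SE of 0.09 and a 95% interval from 0.105 to 0.485, and the FC was 1.23. The unadjusted limma p was 0.00463 with an adjusted p of 1.0, and the exact permutation p was 0.0108. All 12 values of NR2E1 were far below the limit for a bright cluster, where the filter was passed by 2.19% of clusters, against 1.39% of bright ones. Without P30, the highest pig, the log2 FC was 0.25 and NR2E1 no longer passed the filter. The study names NR2E1 among its differentially expressed genes from these same arrays, so the values given here are no independent evidence of its direction.

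Its relative NR2E3, a receptor of photoreceptor cells, was dim as well and averaged 3.81 ± 0.23 in group PIV and 3.87 ± 0.23 in group CON. The immediate early receptors NR4A2 and NR4A3, which respond fast to stimuli such as fasting hormones, had log2 FC of 0.01 and -0.06. Both were dim in every pig, and NR4A1 had no transcript cluster under its own symbol. NR0B1 (DAX-1), a receptor without a DNA-binding domain, had a log2 FC of 0.05, and in group PIV P29 was its highest pig with 5.02. NR6A1 (germ cell nuclear factor) varied most of all members, at 4.91 ± 0.29 in group PIV and 4.80 ± 0.47 in group CON, where K1 had 5.40 and K23 had 4.06.

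The spread of the members between pigs of a group was close to that of other clusters. The median SD within groups was 0.153 for the members and 0.180 for all clusters. Among bright ones it was 0.147 for members and 0.166 for clusters, and among dim ones it was 0.197 for members and 0.191 for clusters. The SD was highest for NR6A1 at 0.386, ESRRG at 0.346 and RARG at 0.253, and lowest for NR3C1 at 0.098, RORB at 0.102 and NR2F2 at 0.106. The value of NR3C1 is that of its plus-strand cluster. Its minus-strand cluster had an SD of 0.08 in group PIV and 0.20 in group CON. The SD was smaller in group PIV than in group CON for 21 of the 35 members, 60.0%, against 64.2% of all clusters. Examples are NR1H3, RXRA, ESR2 and ESRRB, whose values in group PIV spanned a narrow stretch within the range of group CON. Without K22 the members' count was again 21 of 35, while the share over all clusters was 58.5%. K22 was the lowest of the 12 pigs for 7 members and the highest for 0, whereas over all clusters it was the lowest in 16.9% and the highest in 13.6%. The pigs K3 and K42 were the highest for 6 members each.

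**Figure D3:**
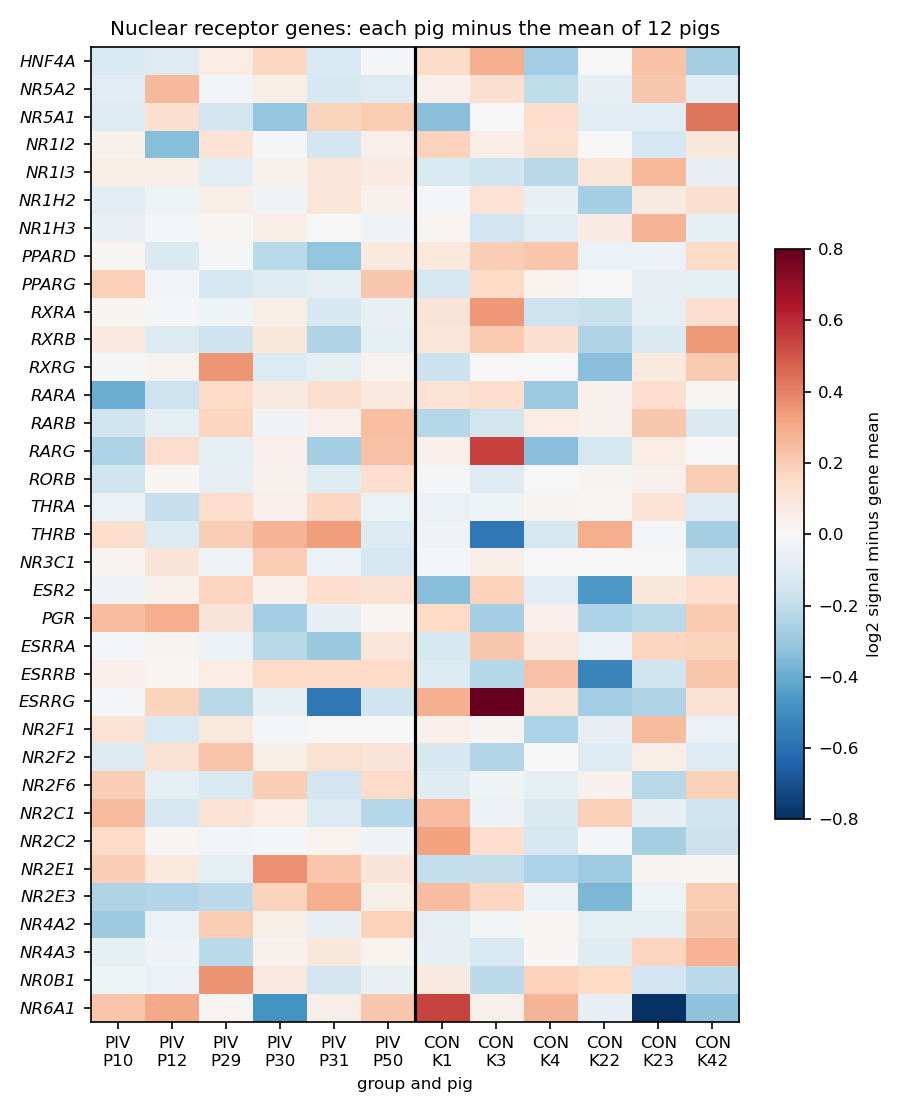
Log2 signal of each pig minus the mean of the 12 pigs, for the 35 members (rows, by role) and the pigs (columns, group PIV left of the line and group CON right of it); red is higher and blue is lower, and the scale ends at 0.8 in each direction. The strongest colours belong to single pigs, such as the high ESRRG of K3 and the low NR6A1 of K23, and NR2E1 is the row in which 5 pigs of group PIV are redder than all of group CON.

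The genes around the receptors were read through 14 lists of coregulators, chaperones, target genes and enzymes of ligand supply. The lists held 141 measured genes apart from the members, of which 33 were found through an mRNA entry only and are less certain. The filter was passed by 3 of them, 2.13%, close to the 1.82% of all clusters, and 2 of the 3 were higher in group PIV. The median log2 FC of the 141 genes was 0.018. The sizes of single lists given below also count the members NR1H3, THRB, RARB and ESRRA, each in the list of its own targets. None of the 14 coactivators, the 8 corepressors and the 5 receptor chaperones passed. The methyltransferase PRMT1 came nearest with 6.24 ± 0.16 in group PIV and 6.46 ± 0.19 in group CON, a FC of -1.16. The coactivator PPARGC1A (PGC-1 alpha) had a log2 FC of -0.08 with an SE of 0.145. The related PPARGC1B had one of 0.08 with an SE of 0.115. Of the 14 coactivators 10 had a positive and 4 a negative log2 FC, against 52.3% positive over all clusters.

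No target gene of the xenobiotic, liver X or glucocorticoid receptors passed the filter, and MYLIP and ABCC2 alone had an unadjusted limma p under 0.05. Of 14 PXR and CAR targets, the bile canalicular pump ABCC2 averaged 9.22 ± 0.15 in group PIV and 9.02 ± 0.15 in group CON, and its FC of 1.15 was under the filter. Of 11 liver X receptor targets, MYLIP, the ubiquitin ligase that removes the LDL receptor, was the list gene whose groups did not overlap, 0.709% of the list genes against the 0.158% of all clusters. MYLIP ranged from 5.65 over a median of 5.74 to 6.11 in group PIV, and from 5.49 over a median of 5.59 to 5.63 in group CON. All 6 pigs of group PIV lay above all of group CON, although P12, the lowest, did so by a margin smaller than the SD of either group. The log2 FC of MYLIP was 0.22 with an SE of 0.09, and the unadjusted limma p was 0.0197. The exact permutation p was 0.00216, the smallest that 6 against 6 pigs can give. Any gene whose groups do not overlap gets this value, so it adds nothing to the separation for which MYLIP was picked. Its companion targets ABCA1 and ABCG8, which export cholesterol, had negative log2 FC of -0.13 and -0.20, so the list showed no common direction. Of 14 glucocorticoid receptor targets, IGFBP1, named here after its values were seen, had the largest log2 FC of any list gene at 0.98, with 8.65 ± 1.57 in group PIV and 7.66 ± 2.02 in group CON, an SE of 0.83 and thus no difference beyond the spread.

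The target lists of HNF4A and of the oestrogen-related receptors each leaned one way, by small amounts. All 15 measured HNF4A targets had a positive log2 FC, with a median of 0.084, against 47.8% of the bright clusters, and 1 of them passed the filter. That gene was PKLR, the liver pyruvate kinase, with 7.56 ± 0.37 in group PIV and 7.24 ± 0.20 in group CON, a FC of 1.25 and an exact permutation p of 0.0866. Its highest pig was P50 with 8.21, and PKLR no longer passed with the methods' t-test, with equal array medians or without any one of P12, P30, P50, K1, K4, K22 and K23. The other HNF4A targets, such as APOA2 and APOC3 of the lipoproteins, had log2 FC between 0.02 and 0.17. The count was 15 of 15 with equal array medians also, and between 13 and 15 with a single pig left out, the lowest without K3. The median ranged from 0.038 without K4 to 0.107 without P12. HNF4A itself had a log2 FC of -0.05 with an SE of 0.11, and one of 0.008 without K3. Its own direction was therefore not determined, and whether its level goes with that of the targets was not tested. The hepatocyte markers, which share genes with this list, had a median log2 FC of 0.041.

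Of the 10 targets of the oestrogen-related receptors and PGC-1, ESRRA included, 9 had a negative log2 FC, and the median was -0.12. Among the bright clusters 52.2% were negative. With equal array medians 9 of the 10 targets and 59.9% of the bright clusters were negative. NDUFB5, a subunit of respiratory complex I, passed the filter with 5.94 ± 0.18 in group PIV and 6.23 ± 0.18 in group CON, a FC of -1.22 and an exact permutation p of 0.0216, and it no longer passed without P31, without P50 or without K22. COX5B of complex IV averaged 6.10 ± 0.13 in group PIV and 6.29 ± 0.16 in group CON, and its FC of -1.15 was under the filter. In both genes 4 pigs of group PIV lay below every pig of group CON. The exception in direction was PDK4, an inhibitor of pyruvate oxidation, with a log2 FC of 0.10. Without K22, 6 of the 10 were negative and the median was still -0.12. These counts describe the lists and were not tested against other genes.

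Of 7 LRH-1 targets, PLK3, a stress-responsive kinase, passed the filter with 5.54 ± 0.30 in group PIV and 5.18 ± 0.18 in group CON, a FC of 1.29 and an exact permutation p of 0.0411, while CYP7A1, the rate-limiting enzyme of bile acid synthesis, had a log2 FC of 0.14 with an SE of 0.16. None of 9 thyroid hormone receptor targets, THRB included, passed. DIO1, the deiodinase that activates thyroid hormone, averaged 8.52 ± 0.19 in group PIV and 8.27 ± 0.38 in group CON. None of 9 retinoic acid receptor targets, RARB included, passed. CYP26A1, which degrades retinoic acid, and DHRS3, which converts retinal back to retinol, had log2 FC of 0.31 and -0.32 with an SE of 0.19 each. None of 7 vitamin D receptor targets, VDR included, was bright. None of the 15 genes of thyroid hormone and retinoid supply and the 13 genes of steroid and sterol ligand supply passed, and HSD17B2, which inactivates oestradiol and testosterone, had the largest difference with 8.85 ± 0.21 in group PIV and 9.19 ± 0.51 in group CON.

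**Figure D4:**
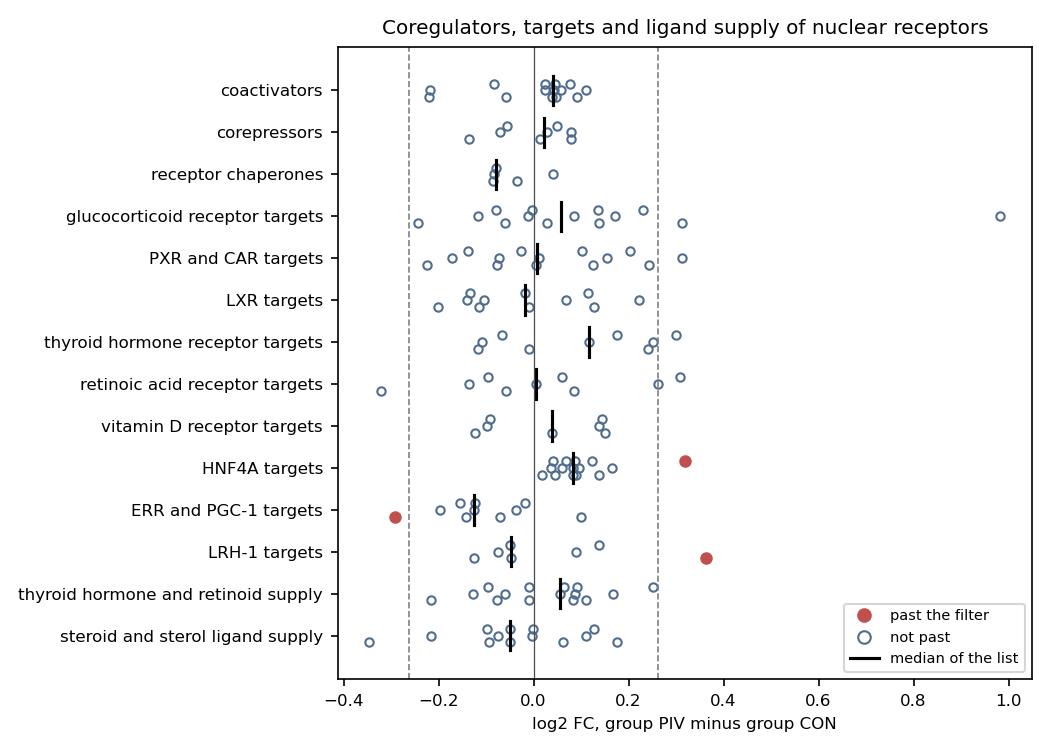
Log2 FC, group PIV minus group CON, of the genes of 14 lists (vertical axis); each point is a gene, filled if it passed the filter, black bars are the medians of the lists and dashed lines mark a FC of 1.2 in each direction. The filled points are PKLR, NDUFB5 and PLK3, the open point at 0.98 is IGFBP1, and all HNF4A targets lie right of 0.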

How the data were processed

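The authors hybridised liver RNA of each pig to 1 Affymetrix porcine gene array and summarised the scans with RMA (Affymetrix Expression Console 1.4 per the submitters' processing notes). The authors deposited log2 signals of each transcript cluster, once in a workbook and once in a value table, which differed by at most 0.005. RMA had normalized the arrays together, so background correction could not be varied. The authors' own ratio, fold change and p-value columns were not used.

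Where a symbol had several clusters, that with the highest mean over 12 pigs was taken. After 3 ribosomal RNA clusters were left out, 25385 clusters were fitted with limma 3.58.1 in R 4.3.3 (lmFit, eBayes, no covariate), adjusted by Benjamini-Hochberg, and the fit was tested on simulated data. Intervals are limma's at 95%. For single genes an exact two-sided permutation test was added (Python 3.11.15), not adjusted. The number of arrays limits the precision.

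Every member is named; of each list, genes past the filter and up to 3 with the smallest p, and others, such as IGFBP1, PPARGC1A, ABCG8 and PDK4, were chosen after their values were seen. The members and lists were chosen with earlier results of these data known. Alternatives were the methods' t-test, trend and robust variance, array weights, a limit on dim clusters, scaling, FC thresholds and each pig left out.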

Additional observations from a re-analysis of the deposited data

Results flagged for a closer look

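In 6 of the 70 sets of 6 pigs (35 members in each group), 1 pig lay apart from its group by more than Dixon's 95% limit, where chance gives about 1 in 20, that is 3.5. In group PIV, P29 was apart with the highest RXRG at 3.40 and the lowest NR1I3 at 8.40, and P10 with the highest NR2C2 at 6.45. In group CON, K42 was apart with the lowest NR3C1 at 6.26 and the highest NR4A2 at 4.38, and K4 with the lowest RARA at 5.495. None of these genes passed the filter, and RXRG and NR4A2 were dim in every pig. K22, the pig farthest from the others over all clusters, was apart for none of the members.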

How the results depend on the processing

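The count of members past the filter was 1 with the methods' t-test, the trended robust variance, quantile normalization, equal array medians, the value table, the mean over clusters of a symbol and the FC from linear means. It was 2 with array weights (NR2E1 and THRB), 2 at a FC above 1.1 (NR2E1 and NR2F2), 0 at a FC above 1.5 and 0 among bright clusters, since NR2E1 is dim. With 1 pig left out it ranged from 0 to 3. It was 0 without P30, 2 without P12 or without P50 (NR2E1 and THRB) and 3 without K22 (NR2E1, THRB and ESRRG). Of all clusters 462 passed, against 300 by the methods' t-test, 161 among bright clusters, 921 at a FC above 1.1, 25 at a FC above 1.5, and 427 to 705 with 1 pig left out, the highest without K42. Of the list genes 3 passed, against 2 by the methods' t-test and 2 with equal array medians (NDUFB5 and PLK3 each time), and 2 to 7 with 1 pig left out, with 6 without P10, 5 without K1 and 7 without K3. The calls of all clusters split into 262 higher and 200 lower in group PIV, and into 194 higher and 266 lower with equal array medians, 71 and 90 among bright clusters, and 258 and 245 with array weights. For single members, 714 of 720 alternative values kept their side of the filter. The sign changed in 48 of the 720, for 17 members with a log2 FC of at most 0.11 in size, and 0 of these was past the filter. NR2E1 was past the filter in 20 of 23 settings, with a log2 FC of 0.25 to 0.34 and a limma p (or that of the methods' test) of 0.00178 to 0.0137. No paired analysis was run, because the study allocated pigs to the groups at random and the labels link no pigs across groups. What the 15 dim members can show is limited by their signal, for which no background was measured here.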

Other observations

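Whether RXRA varied over the pigs with the receptors that pair with it was looked at after the data were seen, over 12 pigs and 11 partners with permutation tests of 100000 resamples. After Benjamini-Hochberg adjustment no relation passed, and the lowest adjusted permutation p was 0.0934 for Pearson's r and 0.173 for Spearman's rho. RARB had r = -0.61 (permutation p = 0.0305) and rho = -0.69 (permutation p = 0.0157) with RXRA, and r was -0.57 without K3 and K42, the pigs farthest from the median of RXRA, -0.51 within group PIV and -0.71 within group CON. RARG had r = 0.73 (permutation p = 0.00871) and rho = 0.51 (permutation p = 0.0937), with 0.45 without these pigs, 0.21 within group PIV and 0.88 within group CON. THRB had r = -0.68 (permutation p = 0.0170) and rho = -0.48 (permutation p = 0.114), with -0.11 within group PIV and -0.83 within group CON, and without the same pigs r was -0.11, so its relation rests on K3 and K42.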
